A study of Mus musculus with 3 samples.

Results

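The extraembryonic visceral endoderm cells described here were 2550 of the 22168 cell barcodes that passed quality control in the single-cell RNA-seq of 3 mouse embryos, with 293, 1273 and 984 cells in embryos 1, 2 and 3. A barcode was taken as a visceral endoderm cell when *Ttr* and *Apoa1* together made up at least 30 of every 10000 of its unique molecular identifiers (UMIs, which count each captured transcript once) and when it held at least 1 UMI each of *Cubn* and *Amn*. The values of these 4 genes therefore chose the cells, and they are given below as a description. All 3 embryos were wild-type C57BL/6 x 129 SvEv whole embryos at embryonic day 8. The harvesting protocol selected 0 to 1 somite, one label allows 0 to 2, and genotyping in the study called the embryos male. The protocol states that extraembryonic tissue was dissected away, so these are the cells that stayed with the embryo, and the 3 embryos carry no treatment or mutation in their labels. Each embryo gave 1 library, and the embryo is the replicate (n = 3). The visceral endoderm cells held 9563191, 24089948 and 18450026 UMIs in the 3 embryos, against 185914328, 121670059 and 147592783 in all other barcodes. Pairs of libraries shared between 14 and 20 barcode sequences, and 1 shared barcode was a visceral endoderm cell in both libraries.

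The visceral endoderm is an epithelium that surrounds the early embryo and lines the yolk sac. Its apical face carries microvilli and an endocytic apparatus that takes up maternal protein, which is digested in lysosomes, and its basal face secretes lipoproteins and serum carriers before the liver forms. Part of it is later mixed into the gut tube with definitive endoderm. *Cubn* and *Amn* encode the subunits of cubam, the endocytic receptor of this epithelium. *Ttr* and *Rbp4* encode the carriers of thyroid hormone and retinol, and *Apoa1* encodes the main protein of high-density lipoprotein.

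All 4 genes of the rule were far higher in these cells than elsewhere, which the rule fixed. *Ttr* had 5891, 6267 and 5867 CPM (UMIs of a gene per 1000000 UMIs of the summed cells) in embryos 1, 2 and 3, against 26.4, 67.5 and 46.5 CPM in all other barcodes. *Apoa1* (chr9:46228580-46230466, GRCm38) had 3134, 4461 and 4049 CPM against 12.0, 40.9 and 33.0 CPM. *Cubn* (chr2:13276338-13491813) had 867, 754 and 862 CPM, and *Amn* (chr12:111271095-111276426) had 716, 759.7 and 686 CPM. *Ttr*, *Cubn* and *Amn* were at nearly one level in the 3 embryos, while *Apoa1* was lowest in embryo 1. The combined share of *Ttr* and *Apoa1* had a median of 91.5, 106 and 98.1 UMIs per 10000 in the 3 embryos and reached 284, 378 and 301.

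The threshold lies on a slope and not in a gap. Among barcodes with *Cubn* and *Amn*, the 62 barcodes just outside it (20 to 30 UMIs of *Ttr* and *Apoa1* per 10000) had 1417 CPM of *Rbp4*, 612 CPM of *Apob* and 37.1 CPM of *Hnf4a*, as means over the embryos. The 96 barcodes just inside it (30 to 40) had 1919, 798 and 43.6 CPM of these genes. The 1167 barcodes between 40 and 100 had 4141 CPM of *Rbp4* and 92.7 CPM of *Hnf4a*, and the 1287 barcodes at 100 or over had 5810 and 97.9 CPM. Markers of other lineages were summed over the erythroid, endothelial, extraembryonic mesoderm and allantois, mesoderm, cardiac and node lists and most of the ectoderm and epiblast list. They had 668 CPM from 10 to 20, 809 CPM from 20 to 30 and 1035 CPM just inside the threshold, and then 362 CPM between 40 and 100 and 134 CPM above. From just outside to just inside the threshold they went from 1078 to 1878 CPM in embryo 2, but from 509 to 415 CPM in embryo 1 and from 840 to 812 CPM in embryo 3, so the mean without embryo 2 was 674 CPM just outside and 613 CPM just inside. The erythroid markers alone summed to 1.66, 1444 and 193 CPM in all other barcodes of embryos 1, 2 and 3. Their part in each bin was not tested. Barcodes on both sides of the threshold were also large, with a median of 33861 UMIs from 20 to 30 and 31874 UMIs from 30 to 40. A further 84 barcodes (24, 44 and 16) reached 30 UMIs of *Ttr* and *Apoa1* per 10000 but lacked *Cubn* or *Amn*. They were shallow, with a median of 6439, 5717 and 5753 UMIs, and their median mitochondrial share was 0.190, 0.149 and 0.329%.

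**Figure D1:**
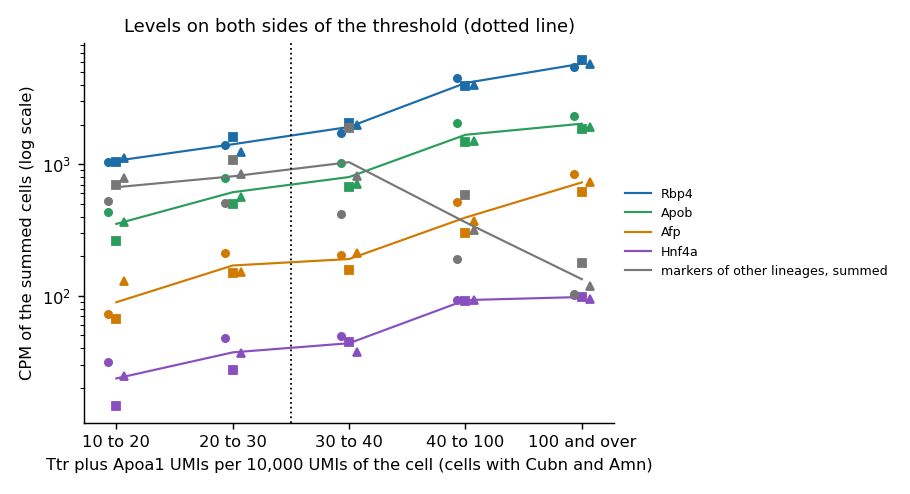
Level (y axis, CPM of the summed cells, log scale) of Rbp4, Apob, Afp, Hnf4a and the summed markers of other lineages in cells with Cubn and Amn, by the UMIs of Ttr and Apoa1 per 10000 (x axis); circles, squares and triangles are embryos 1, 2 and 3 and lines join the means. The first 4 rise across the threshold (dotted line) without a step, while the mean of the markers of other lineages is 668, 809, 1035, 362 and 134 CPM over the bins, its peak led by embryo 2, and embryo 1 falls at every bin.

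Visceral endoderm cells made up 4.78% of the barcodes of embryo 1 (95% interval 4.26 to 5.34, exact Clopper-Pearson), 15.7% of embryo 2 (14.9 to 16.5) and 12.4% of embryo 3 (11.7 to 13.2). The mean was 10.96% ± 5.597 (SD, n = 3), and the intervals, which cover counting error only, did not overlap. Extraembryonic tissue was dissected away from each embryo, and the part of dissection in these shares was not tested. Embryo 1 also had the deepest library. Its visceral endoderm cells had a median of 28270 UMIs and 5315 genes, against 16417 UMIs and 4067 genes in embryo 2 and 15866 UMIs and 4031 genes in embryo 3. Within an embryo the depth was close to that of all other barcodes (ratio of medians 1.07 ± 0.10, SD, n = 3). The mitochondrial share was not. Its median was 7.25, 5.71 and 6.56% of UMIs in visceral endoderm cells and 3.35, 2.69 and 2.98% in all other barcodes, a ratio of 2.16 ± 0.04, and all 13 mitochondrially encoded genes tested were higher in visceral endoderm cells. Since the quality limit was set at 10% mitochondrial UMIs, it removed visceral endoderm barcodes too. Without that limit the mean share was 11.7%. At a threshold of 100 UMIs of *Ttr* and *Apoa1* per 10000 the share was 1.89, 8.65 and 5.92% in the 3 embryos. Barcodes with high doublet scores, above a limit set in each embryo to leave at most 6% over it (334 of 6129, 473 of 8116 and 436 of 7923 barcodes), made up 7.51, 13.1 and 9.45% of visceral endoderm cells and 5.35, 4.47 and 4.94% of the others, and the mean share without them was 10.3%.

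**Figure D2:**
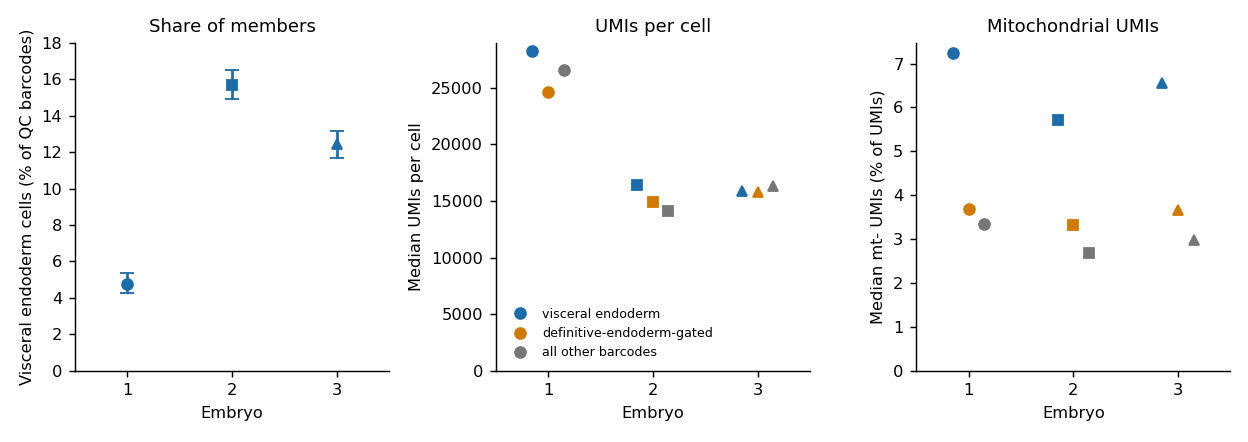
Share of visceral endoderm cells among barcodes that passed quality control (left, %, bars are exact 95% intervals), median UMIs per cell (middle) and median mitochondrial share (right, % of UMIs) in embryos 1, 2 and 3. Blue is visceral endoderm, orange definitive-endoderm-gated cells and grey all other barcodes; the mitochondrial share is 5.71% or more in every visceral endoderm point and 3.68% or less in every other point.

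To ask which genes set these cells apart, UMIs were summed per embryo over the visceral endoderm cells and over all other barcodes. The quasi-likelihood test of edgeR was applied to the 3 sums of each class, and p-values were adjusted by Benjamini-Hochberg at a limit of 0.05. Of 15701 genes tested, 5362 (34.2%) were higher and 5741 (36.6%) lower in visceral endoderm cells, with a median log2 fold change over all genes of -0.07. Most genes thus differed, and each count of listed genes below is to be read against these percentages. A log2 fold change of at least 5 was reached by 290 of the higher genes and by 68 of the lower ones. Because cells were chosen by UMIs of the same libraries, the comparison was repeated with the rule applied to a random 50% of each barcode's UMIs and the sums made from the rest, which gave 4803 higher and 5268 lower genes of 14546. Scaling by library totals alone moved the median log2 fold change of all genes to -0.31 and the share of higher genes among the calls from 48.3 to 36.4%. Fold changes below are from the TMM-scaled fit, which lies about 0.24 above the plain CPM ratio on the log2 scale.

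The label was checked against marker genes. *Rbp4*, *Apom*, *Apob*, *Apoa2*, *Afp* and *Hnf4a*, the visceral endoderm markers outside the rule, were all higher in visceral endoderm cells. *Rbp4* (chr19:38116629-38125281) had 4520.4, 5039 and 4650.4 CPM against 20.9, 53.8 and 39.8 CPM, with no overlap between the groups and a log2 fold change of 7.19 ± 0.35 (SE, adjusted p = 2e-07). In cells thinned to 5000 UMIs, *Rbp4* had at least 1 UMI in 99.97% of visceral endoderm cells and 10.2% of others, and *Hnf4a* in 36.6 and 0.380%, as means over the embryos. *Ttr*, the most abundant marker, was seen in 100 and 9.97%, and the part of free RNA in the shares of other barcodes was not tested.

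Markers of other lineages were mostly lower. None of the 7 mesoderm, 4 cardiac, 8 extraembryonic mesoderm and allantois, 6 endothelial, 7 ectoderm and epiblast or 5 node markers was higher, and 34 of these 37 were lower. The mesoderm markers summed to 36.1, 42.3 and 30.03 CPM against 391.7, 288 and 278 CPM in all other barcodes, with *Aldh1a2* the most abundant of them. The 8 erythroid markers were not called in either direction. They summed to 9.62, 196 and 48.8 CPM in visceral endoderm and 1.66, 1444 and 193 CPM in all other barcodes, with embryo 2 highest and embryo 1 lowest in both, and *Hbb-bh1*, an embryonic globin, was the most abundant. Of the 10 parietal endoderm markers, genes of the neighbouring extraembryonic endoderm layer, 7 were higher and 2 lower. *Sparc*, a matrix protein, was their most abundant gene (345, 418 and 353 CPM against 156, 152 and 152 CPM), while *Thbd* and *Plat*, which mark parietal endoderm more narrowly, were the lower pair. Of the trophoblast markers 3 were higher (*Eomes*, *Plac1* and *Rhox9*) and 3 lower (*Gata3*, *Tfap2c* and *Ascl2*), and *Tpbpa* had no UMI in visceral endoderm cells. Of the definitive endoderm markers, 5 were higher than in all other barcodes (*Foxa2*, *Sox17*, *Cldn6*, *Krt18* and *Cpm*), while *Apela* and *Trh*, a signalling peptide and a hormone precursor, were lower.

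Serum carriers and secreted plasma proteins were higher almost throughout, as 21 of 23 tested members were higher and 1 was lower, with a median log2 fold change of 5.70 against -0.07 over all genes tested. At a threshold of 100 UMIs of *Ttr* and *Apoa1* per 10000, where the members below it count among all other barcodes, the median was 4.19 for serum carriers, 3.76 for apolipoproteins (4.62 at 30), 3.77 for solute transporters (5.13) and 3.12 for the brush border (3.79). *Afp* (chr5:90490737-90508907), the albumin-like serum protein of the fetus, had 587, 460.4 and 519 CPM in visceral endoderm cells and 2.17, 4.82 and 5.10 CPM in all other barcodes, and the groups did not overlap (log2 fold change of 7.26 ± 0.34, adjusted p = 1.47e-07). *Spink1*, a secreted trypsin inhibitor, had 6817, 3931 and 5580.1 CPM against 198, 179.7 and 172 CPM, and its log2 fold change of 5.13 ± 0.18 (SE, adjusted p = 3.61e-08) came with an SD of 1448 CPM around a mean of 5443 CPM, embryo 2 being lowest. *Cst3*, which encodes cystatin C, had 489, 448 and 437 CPM against 159, 166 and 181 CPM, a log2 fold change of 1.68 ± 0.08 (adjusted p = 1.49e-07). *Vtn*, which encodes vitronectin, was the lower member and was rare in both groups, at 1.46, 0.457 and 0.488 CPM against 3.18, 3.02 and 1.61 CPM, and its call was lost without embryo 2 (adjusted p = 0.0898). *Alb* and *Ahsg*, carriers of the later liver, were not part of this pattern. *Alb*, serum albumin, had 0 UMIs in 2550 cells, which allows at most 0.0576 CPM, or 0.118% of cells with a UMI, and does not limit the share of cells that express it. It was left out of the test for low counts. *Ahsg* was the member that did not pass the test, with 0.523, 0.125 and 0.217 CPM against 0.237, 0.230 and 0.183 CPM (0.39 ± 0.49, adjusted p = 0.511). Both were singled out after their values were seen.

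Apolipoproteins and proteins of lipid export showed the same direction, and 16 of 19 tested members were higher and 1 was lower (median log2 fold change 4.62). *Apob* (chr12:7977648-8016835), the scaffold of very-low-density lipoprotein, had 2023, 1632 and 1641 CPM against 6.95, 14.1 and 13.2 CPM, a log2 fold change of 7.51 ± 0.30 (SE, adjusted p = 6.07e-08). *Apoe* had 5646, 5596 and 4925 CPM against 281, 280.3 and 297 CPM, a log2 fold change of 4.47 ± 0.08 (adjusted p = 2.51e-09), and other barcodes carried it at these levels too. *Apom*, which carries sphingosine-1-phosphate, had 1811, 2008 and 1898 CPM against 10.6, 26.0 and 21.2 CPM. *Apoa2*, a second protein of high-density lipoprotein, differed between embryos, with 313, 640.1 and 449 CPM, and was lowest in embryo 1, as was *Apoa1*. *Pltp*, which moves phospholipid between lipoproteins, was the only member called lower, with 0.105, 0.0830 and 0.271 CPM against 1.495, 1.51 and 1.27 CPM.

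Since serum carriers and apolipoproteins moved together, their promoters were searched on both strands for short motifs of liver-type transcription factors, over the 250 bases before and 50 after each start site in the RefSeq table (build GRCm38.p6). The upstream bases of *Rbp4* are shown because it is a strong marker that the rule did not use and a motif was found there. Capitals mark the FOX motif TGTTTAC, read on the opposite strand, 241 bases before the first listed *Rbp4* start (chr19:38125322-38125571, − strand). No searched motif was found in the upstream bases of the second listed *Rbp4* start.
Rbp4: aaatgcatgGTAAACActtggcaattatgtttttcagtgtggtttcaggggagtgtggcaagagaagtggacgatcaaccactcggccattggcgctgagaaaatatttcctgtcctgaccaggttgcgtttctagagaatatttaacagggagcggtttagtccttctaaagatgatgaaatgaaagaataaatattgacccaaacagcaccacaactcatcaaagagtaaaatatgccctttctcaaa
This motif was found in the windows of 4 of the 34 genes of both lists that the table holds (*Apoa2*, *Apoe*, *Rbp4* and *Selenop*), in 3.65% of all 32851 windows, and in 3.30% of the 273 windows of the 221 matched genes with a log2 fold change of at least 5, so it was no more frequent there. The GATA motif AGATAA was found for 6 of the 34 genes, in 11.2% of all windows and in 12.5% of those 273 windows. The HNF4 motif CAAAGTCC was found for none of the 34, in 1.42% of all windows and in 6.59% of those 273 windows. None of the FOX, GATA and HNF4 motifs was found for *Apoa1*, *Apob*, *Cubn* or *Amn*. A match describes letters in the window and was not tested.

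The endocytic route was higher from the coated pit to the lysosome. For apical endocytosis and endosomes, 27 of 28 tested members were higher and 0 were lower (median log2 fold change 1.91), for lysosomal hydrolases and membrane proteins 27 of 28 tested members were higher and 1 was lower (2.96), and for the vacuolar ATPase, the pump that acidifies these compartments, 15 of 15 tested members were higher and 0 were lower (1.80). *Dab2*, the adaptor that links cubam to clathrin, had 1274, 1259 and 1247 CPM against 33.3, 44.5 and 39.2 CPM and the largest change of the 4 abundant endocytic genes (log2 fold change of 5.25 ± 0.12, adjusted p = 5.34e-09). *Cltc*, the clathrin heavy chain, had 636, 619.5 and 621 CPM against 113, 114 and 118 CPM (2.68 ± 0.07, adjusted p = 6.14e-09). *Clta*, a clathrin light chain, differed less (546, 654 and 628 CPM against 344, 399 and 377 CPM, 0.95 ± 0.10, adjusted p = 2.87e-05), and the sorting nexin *Snx3* lay between them (2.19). *Dab2* hardly varied between embryos, with an SD of 13.6 CPM around a mean of 1260.1 CPM.

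In the lysosome, the cysteine protease *Ctsl* had 2762, 3439.7 and 2896 CPM against 170.0, 202 and 188 CPM, a log2 fold change of 4.26 ± 0.12 (SE, adjusted p = 1.21e-08). *Lgmn*, an asparaginyl endopeptidase that processes cathepsins, had 919, 1074 and 794 CPM against 24.1, 30.3 and 23.4 CPM (5.40 ± 0.16, adjusted p = 1.35e-08). *Ctsb* and the tetraspanin *Cd63* had log2 fold changes of 4.42 and 3.31. The same route held 1 lower gene, *Psap*, the precursor of the saposins, with 33.5, 30.7 and 32.5 CPM against 53.5, 42.4 and 43.0 CPM (-0.28 ± 0.10, adjusted p = 0.0255), a call that was lost without embryo 1 (adjusted p = 0.0721). *Ctss*, a cathepsin of immune cells, had 0 UMIs. Among the pump subunits, *Atp6v0b* had 654, 780.1 and 780.0 CPM against 92.2, 116 and 113 CPM (3.02 ± 0.13, adjusted p = 8.46e-08), and *Atp6v1e1*, *Atp6v0e* and *Atp6v1g1* had log2 fold changes of 2.32, 1.70 and 1.61. All 15 subunits were thus higher, and this also held with library totals alone.

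Genes of the brush border and the actin below it were higher as well, since 14 of 16 tested members were higher and 1 was lower (median log2 fold change 3.79). *Slc9a3r1*, the scaffold that ties membrane proteins to ezrin, had 701, 712 and 697 CPM against 120.0, 119 and 117 CPM (2.81 ± 0.07, adjusted p = 5.34e-09), and *Ezr*, ezrin itself, had 472, 502 and 532 CPM against 104, 99.5 and 92.2 CPM (2.59 ± 0.08, adjusted p = 2.11e-08). The sialomucin *Podxl* and the membrane protease *Prss8* had log2 fold changes of 2.70 and 3.71. *Ush1c*, a scaffold of the links between microvilli, was lower at 1.78, 2.28 and 1.84 CPM against 4.23, 3.48 and 4.29 CPM, and this call was lost without embryo 3 (adjusted p = 0.0792).

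Transport of solutes was among the groups with the largest changes, as 23 of 25 tested members were higher and 1 was lower (median log2 fold change 5.13). *Slc2a2*, the low-affinity glucose transporter of liver and intestine, had 281, 275 and 262 CPM against 0.737, 2.03 and 1.87 CPM and a log2 fold change of 7.72 ± 0.36 (SE, adjusted p = 1.46e-07), and it was seen in 68.5% of visceral endoderm cells and 0.606% of others at 5000 UMIs. *Slc2a3*, a neuronal-type glucose transporter, was abundant in the cells too (2585, 2017 and 2201 CPM against 468, 354 and 368 CPM, 2.75 ± 0.12, adjusted p = 1.03e-07). *Slc2a1*, the glucose transporter of most embryonic cells, was the lower member, with 264, 190.5 and 196 CPM against 433, 397 and 406 CPM (-0.69 ± 0.11, adjusted p = 0.000373). Among these glucose transporters, therefore, the directions were mixed. *Slc16a1* carries lactate and other monocarboxylates (3.17), *Slc13a4* carries sulfate (6.49), and *Atp1b1* is a subunit of the sodium pump (5.63). The water channel *Aqp8* was uneven between embryos, at 34.2, 77.0 and 53.4 CPM.

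Iron and metal storage genes were among the highest transcripts. For metal binding and glutathione defence, 13 of 16 tested members were higher and 3 were lower (median log2 fold change 1.37). The ferritin heavy chain *Fth1* had 8794, 10129.7 and 9753 CPM against 1475, 2181 and 1934 CPM (2.60 ± 0.15, adjusted p = 4.25e-07), and the light chain *Ftl1* had a log2 fold change of 1.62. *Mt1*, a metallothionein, had 1222, 1422 and 818 CPM, lowest in embryo 3, against 14.5, 46.2 and 82.0 CPM in all other barcodes, where embryo 3 was highest. The selenoenzyme *Gpx4* differed less (1.11 ± 0.09, adjusted p = 4.24e-06). *Heph*, *Gpx2* and *Gclc*, which encode a ferroxidase, an intestinal glutathione peroxidase and the catalytic subunit of glutathione synthesis, were lower, with log2 fold changes of -1.97, -1.55 and -0.39.

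Serine, glycine and threonine metabolism was higher in most of its members, since 11 of 12 tested members were higher and 1 was lower (median log2 fold change 1.69; *Gcat* was not matched). *Tdh*, threonine dehydrogenase, had 290.2, 329 and 318 CPM against 9.17, 7.93 and 8.72 CPM (log2 fold change of 5.42 ± 0.11, adjusted p = 3.11e-09). *Gldc* and *Gcsh*, subunits of the glycine cleavage system, had log2 fold changes of 4.04 and 1.96, and *Psph*, the last enzyme of serine synthesis, of 3.29. *Mthfd2*, a mitochondrial folate enzyme of proliferating cells, was lower (28.8, 31.4 and 32.7 CPM against 82.8, 85.8 and 91.3 CPM, -1.24 ± 0.09, adjusted p = 1.73e-06). Genes of the secretory pathway and unfolded protein response were higher by smaller steps, since 22 of 23 tested members were higher and 0 were lower (median log2 fold change 0.75; 19 higher and 1 lower with library totals alone). The chaperones *Hsp90b1*, *Calr* and *Hspa5* had log2 fold changes of 0.67, 1.06 and 0.61, and the translocon subunit *Sec61b* of 0.75.

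Transcription factors of endoderm and liver separated into factors that were nearly absent elsewhere and factors shared with other lineages. Of the list, 16 of 20 tested members were higher and 1 was lower (median log2 fold change 2.52). *Hnf4a* (chr2:163506808-163572910), a nuclear receptor that drives apolipoprotein and transport genes in liver, had 90.9, 92.9 and 90.7 CPM against 0.457, 1.06 and 0.888 CPM, with no overlap and a log2 fold change of 7.11 ± 0.26 (SE, adjusted p = 3.91e-08). *Creb3l3*, a membrane-bound factor of the liver and intestine, had 76.6, 101 and 96.9 CPM against 0.215, 0.863 and 0.732 CPM (7.54 ± 0.40, adjusted p = 3.03e-07). The epithelial factor *Tfcp2l1* and the bZIP factor *Maf* had log2 fold changes of 5.54 and 4.87.

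The coactivator *Cited1* was abundant, with 1010.0, 1239.7 and 1096 CPM against 134, 143 and 119 CPM (3.32 ± 0.11, adjusted p = 2.6e-08). *Foxa3*, *Gata4*, *Tbx3*, *Foxa2*, *Klf9*, *Sox17*, *Sox7* and *Nr2f2* were also higher, with log2 fold changes from 1.14 (*Nr2f2*) to 3.31 (*Foxa3*), and the bile acid receptor *Nr1h4* was higher at under 1 CPM in both groups (3.04). *Gata6*, an early regulator of primitive endoderm, did not pass the test (46.4, 29.0 and 41.8 CPM against 52.9, 49.1 and 53.0 CPM, -0.18 ± 0.14, adjusted p = 0.272), nor did *Foxa1* (6.06, 1.62 and 1.301 CPM against 6.61, 4.51 and 3.23 CPM, -0.60 ± 0.50, adjusted p = 0.304) or *Cebpa* (0.209, 0.0415 and 0.0542 CPM against 0.215, 0.0986 and 0.149 CPM, -0.75 ± 0.73, adjusted p = 0.374). *Foxa1* was called lower with the embryo as a block (edgeR adjusted p = 0.0301), and without embryo 1 its log2 fold change was -1.14 (edgeR adjusted p = 0.00647). Thinned to 5000 UMIs both were called lower (*Foxa1* 0.004, *Gata6* 0.00867), as they were at 100 UMIs of *Ttr* and *Apoa1* per 10000 (*Foxa1* 0.00423, with a log2 fold change of -1.49, and *Gata6* 0.0268), and *Gata6* was also called lower with library totals alone (0.0292). *Prox1*, a factor of the liver bud, was lower (-1.47 ± 0.22, adjusted p = 0.000255). *Hnf4g* and *Onecut1* were left out for low counts, with 1 and 5 UMIs in all visceral endoderm cells.

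Secreted ligands and antagonists did not share a direction, since 7 of 20 tested members were higher and 11 were lower (median log2 fold change -0.98). *Ihh*, the hedgehog ligand with which the visceral endoderm signals to blood-forming mesoderm, had 42.6, 30.6 and 33.4 CPM against 2.21, 2.70 and 1.67 CPM (log2 fold change of 4.25 ± 0.19, adjusted p = 1.16e-07). *Apln*, the ligand of the apelin receptor, had 57.1, 117 and 101 CPM, lowest in embryo 1, against 14.2, 9.80 and 12.7 CPM (3.16 ± 0.26, adjusted p = 5.2e-06). *Dlk1*, a paternally expressed membrane protein related to Notch ligands, had 219.7, 183 and 153 CPM against 53.2, 74.2 and 66.9 CPM (1.75 ± 0.15, adjusted p = 7.71e-06), and *Vegfa*, the endothelial growth factor, had 35.3, 27.4 and 30.9 CPM against 17.1, 16.2 and 16.6 CPM (1.14 ± 0.09, adjusted p = 4.98e-06). *Igf2* and *Gdf15* were higher at low levels, with log2 fold changes of 1.21 and 3.77. *Bmp2* was called higher (39.9, 17.3 and 23.6 CPM against 18.1, 18.6 and 21.2 CPM, 0.68 ± 0.24, adjusted p = 0.0277), but embryo 2 lay below all 3 comparison values and the call was lost without embryo 1 (log2 fold change 0.28, adjusted p = 0.131) and without embryo 3 (0.80, adjusted p = 0.0745). *Pdgfa*, a growth factor for mesenchyme, was among the lower ligands, with 18.3, 18.1 and 16.3 CPM against 104, 105 and 104 CPM (-2.33 ± 0.07, adjusted p = 1.94e-08). *Fgf3*, *Fgf8*, *Bmp4*, *Nodal*, *Nog*, *Wnt4*, *Fgf10*, *Igf1*, *Tdgf1* and *Kitl* were the other lower ligands, with log2 fold changes from -4.25 (*Igf1*) to -0.73 (*Kitl*), and the call of *Nodal* was lost when thinned to 5000 UMIs (edgeR adjusted p = 0.0698). *Wnt3* (0.21 ± 0.27, adjusted p = 0.49) and *Angpt2* (-0.60 ± 0.31, adjusted p = 0.118) did not pass the test, and *Angpt2* was called lower with library totals alone (log2 fold change -0.84, edgeR adjusted p = 0.034).

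Genes of the anterior visceral endoderm, the signalling patch that patterns the head before this stage, were lower in 8 of 9 tested members (median log2 fold change -1.44). That median was -2.84 without high doublet scores, where 7 were called lower, and -2.84 at a threshold of 100 UMIs of *Ttr* and *Apoa1* per 10000, where 8 were. *Cer1*, a secreted antagonist of *Nodal*, had 2.30, 0.872 and 1.84 CPM against 13.0, 6.11 and 7.90 CPM (-2.29 ± 0.37, adjusted p = 0.000479), and *Otx2*, a head homeobox factor, had 13.0, 9.80 and 10.5 CPM against 53.8, 31.7 and 43.8 CPM (-1.74 ± 0.19, adjusted p = 3.12e-05). *Hesx1*, *Dkk1*, *Lhx1*, *Gsc* and *Sfrp5* had log2 fold changes of -1.44, -0.69, -0.90, -2.15 and -2.10. *Hhex* was close to the threshold (-0.45 ± 0.18, adjusted p = 0.046), and its call was lost without embryo 2 (adjusted p = 0.113), without embryo 3 (0.34), without high doublet scores (0.0688) and with *Ttr* and *Apoa1* alone as the rule (0.278). *Amot*, which binds Yap at cell junctions, was the higher member, with 468, 441 and 445 CPM against 102, 120.2 and 140.5 CPM (2.14 ± 0.12, adjusted p = 4.03e-07), and *Lefty1* was left out for low counts.

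In the epithelial and mesenchymal list 12 of 19 tested members were higher and 6 were lower (median log2 fold change 0.61; 10 higher and 7 lower with library totals alone). The claudins *Cldn7* and *Cldn6* had 478, 316 and 428 and 339, 285 and 304 CPM, with log2 fold changes of 3.61 ± 0.14 (adjusted p = 4.55e-08) and 3.32 ± 0.11 (adjusted p = 2.85e-08). The keratins *Krt18* and *Krt8* differed far less, with log2 fold changes of 0.61 ± 0.12 (adjusted p = 0.00156) and 0.35 ± 0.11 (adjusted p = 0.017), and *Krt8* lost its call without embryo 1 (adjusted p = 0.0871), without embryo 3 (0.12) and with library totals alone (0.384). *Vim*, the intermediate filament of mesenchyme, had 29.2, 38.3 and 28.9 CPM against 209, 223 and 224 CPM (-2.52 ± 0.13, adjusted p = 2.1e-07). *Cdh2* and *Zeb1*, a mesenchymal cadherin and a repressor of epithelial genes, had log2 fold changes of -2.71 and -2.63, while *Fn1*, fibronectin, was higher (0.37).

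Cell cycle genes leaned lower but not as a block, since 5 of 26 tested members were higher and 13 were lower (median log2 fold change -0.21; 5 higher and 20 lower with library totals alone). Transcripts of dividing cells remained common. *Mki67*, a marker of cycling cells, was seen in 49.5% of visceral endoderm cells and 54.2% of others at 5000 UMIs, and *Cdk1*, the mitotic kinase, did not pass the test (-0.15 ± 0.08, adjusted p = 0.131; 0.0151 with the embryo as a block). *Top2a*, the topoisomerase of replicating cells, was lower (271, 254 and 267 CPM against 485, 405 and 439 CPM, -0.51 ± 0.08, adjusted p = 0.00029), while *Birc5*, survivin, was higher (0.55 ± 0.10, adjusted p = 0.000761). The D-type cyclins *Ccnd1* and *Ccnd2* had the largest downward changes of the list. *Ccnd1* had 35.03, 33.5 and 30.6 CPM against 273, 222 and 232 CPM (-2.64 ± 0.10, adjusted p = 3.91e-08) and *Ccnd2*, named after its values were seen, had 42.9, 49.2 and 50.9 CPM against 405, 346 and 395 CPM (-2.76 ± 0.10, adjusted p = 4.5e-08), whereas *Ccne2*, a cyclin of S-phase entry, was higher (0.61). The cycle inhibitor locus *Cdkn2a* had 46.8, 44.9 and 36.5 CPM against 3.28, 3.403 and 3.06 CPM (log2 fold change of 3.96 ± 0.11, adjusted p = 1.22e-08), and was seen in 17.6% of visceral endoderm cells and 1.41% of others.

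Imprinted and X-linked genes of extraembryonic tissue were higher in 17 of 20 tested members and lower in 1 (median log2 fold change 2.16; *Rian* was not matched). The maternally expressed noncoding RNAs *H19* and *Meg3* had 2083, 1678 and 1930.1 CPM against 272, 347 and 362 CPM (2.77 ± 0.13, adjusted p = 1.29e-07) and 1338, 1021 and 1175 CPM against 442, 384 and 497 CPM (1.65 ± 0.12, adjusted p = 1.79e-06). *Rhox5*, an X-linked homeobox gene of extraembryonic lineages, had 734, 829 and 784 CPM against 13.6, 22.2 and 20.3 CPM (log2 fold change of 5.63 ± 0.20, adjusted p = 3.35e-08). *Mest*, a paternally expressed gene of mesoderm, was the lower member, with 23.1, 43.9 and 40.3 CPM against 246, 338 and 318 CPM (-2.81 ± 0.23, adjusted p = 5.55e-06). *Phlda2*, a maternally expressed growth restrictor, had 595, 626 and 604 CPM against 629, 609 and 743 CPM and did not pass the test (0.12 ± 0.09, adjusted p = 0.263).

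Outside the 16 lists, genes are named here for the size of their change alone, among those at 50 CPM or more. *S100g*, an intestinal calcium carrier, had 369.9, 604 and 569.9 CPM against 2.00, 8.29 and 4.91 CPM (6.92 ± 0.52, adjusted p = 2.92e-06), and the galectin *Lgals2* and the carbonic anhydrase *Car7* had log2 fold changes of 6.93 and 6.71. *Smlr1*, the adenosine receptor *Adora2b*, the lysine-degrading enzyme *Aass*, *Gipc2*, the haem-binding *Hebp1* and *Sigirr*, a damper of interleukin signalling, were higher too. Their log2 fold changes ran from 5.54 (*Sigirr*) to 7.18 (*Smlr1*). Among the largest downward changes, *Cdx1*, a caudal homeobox gene, had 13.0, 15.8 and 11.4 CPM against 195, 144 and 142 CPM (-3.33 ± 0.16, adjusted p = 1.9e-07), the Hox genes *Hoxb1* and *Hoxb2* had log2 fold changes of -3.17 and -3.16, and *Rspo3*, an amplifier of Wnt signalling, of -3.10.

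**Figure D3:**
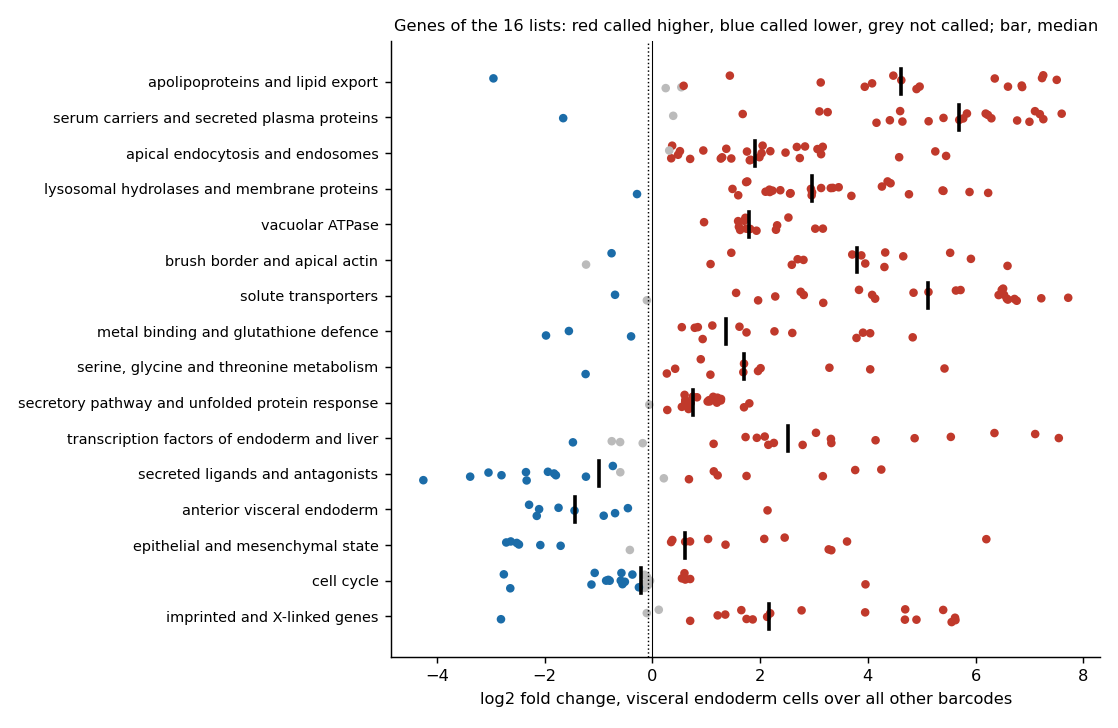
Log2 fold change of each tested gene (x axis, visceral endoderm cells over all other barcodes) in the 16 gene lists (y axis), red where called higher, blue where called lower and grey where not called. Black bars are list medians and the dotted line is the median of all genes tested (-0.07); the median is highest for serum carriers (5.70) and lowest for the anterior visceral endoderm (-1.44).

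To separate what is visceral from what is shared by endoderm, the cells were also compared with 728 definitive-endoderm-gated cells (335, 202 and 191), which had at least 1 UMI of *Foxa2*, at least 2 UMIs of *Apela*, *Trh* and *Sox17* together, no UMI of T, *Noto*, *Foxj1* or *Shh*, and under 30 UMIs of *Ttr* and *Apoa1* per 10000. Genes of either gate were not tested. Of 12164 genes, 4113 (33.8%) were higher and 3993 (32.8%) lower in visceral endoderm cells, with a median log2 fold change of 4.04e-06. This comparison shares its visceral endoderm sums with the previous one. The mitochondrial share was 1.82 ± 0.13 times that of the gated cells.

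The functional lists kept large counts on the visceral side. Serum carriers were higher in 21 of 22 members, apolipoproteins in 16 of 17, endocytosis in 26 of 28, lysosomal genes in 27 of 28, the vacuolar ATPase in 15 of 15 and transporters in 23 of 24. *Rbp4* had 85.7, 95.3 and 98.9 CPM in the gated cells (log2 fold change of 5.86 ± 0.11, adjusted p = 1.74e-10) and *Afp* had 7.24, 8.78 and 15.7 CPM (5.92 ± 0.20, adjusted p = 2.02e-09). *Spink1* was less separated, with 1383, 1469 and 1681 CPM in the gated cells (2.03 ± 0.16, adjusted p = 9.27e-07). The largest upward differences, among genes of at least 50 CPM, included those of *Aqp8*, *Slc2a2*, *Apoa2*, *Creb3l3* and *Fxyd2*, a regulator of the sodium pump, with log2 fold changes from 6.16 (*Fxyd2*) to 7.26 (*Aqp8*). *Slc2a2*, for example, had 3.00, 1.25 and 4.71 CPM in the gated cells (6.70 ± 0.18, adjusted p = 4.8e-10).

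On the other side, the largest downward differences among genes of at least 50 CPM were of *Gpx2*, *Isl1*, *Pdgfa*, *Sox4*, *Fzd2* and *Klk8*. *Pdgfa* had 273, 271 and 239 CPM in the gated cells against 18.3, 18.1 and 16.3 CPM in visceral endoderm (log2 fold change of -3.70 ± 0.09, adjusted p = 3.06e-10), and *Isl1*, a LIM homeobox factor, had 89.4, 83.3 and 61.2 against 3.35, 4.61 and 3.90 CPM (-4.08 ± 0.17, adjusted p = 6.57e-09). *Gpx2* had 110.4, 119 and 105 against 8.99, 2.86 and 4.77 CPM (-4.29 ± 0.26, adjusted p = 1.01e-07). *Sox4*, the Wnt receptor *Fzd2* and the secreted protease *Klk8* had log2 fold changes of -3.22, -3.05 and -2.95. Of the endoderm and liver transcription factors, 13 of 16 tested members were higher in visceral endoderm and 3 lower (median log2 fold change 2.22). *Foxa1*, among the lower ones, had 39.8, 37.9 and 30.9 CPM in the gated cells and 6.06, 1.62 and 1.301 CPM in visceral endoderm (-3.66 ± 0.38, adjusted p = 6.87e-06), and *Maf*, *Gata4* and *Sox7*, among the higher ones, had log2 fold changes of 4.87, 2.33 and 3.66. *Foxa3* differed less (0.78 ± 0.14, adjusted p = 0.000518).

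Epithelial genes split as well, with 6 of 19 listed members higher and 9 lower in visceral endoderm. *Krt8* and *Krt18* were lower than in definitive-endoderm-gated cells. *Krt8* had 895, 1426 and 982 CPM there and 451, 334 and 363 CPM in visceral endoderm (-1.34 ± 0.16, adjusted p = 2.23e-05). *Cldn7* and *Cldn6* were higher in visceral endoderm (1.32 and 0.92). Among ligands, 5 of 16 were higher and 5 lower. *Ihh* was higher by 1.32 and *Apln* by 3.403 on the log2 scale, while *Vegfa* did not pass the test (-0.10 ± 0.11, adjusted p = 0.466), with 38.2, 35.6 and 39.5 CPM in the gated cells. Of the anterior visceral endoderm genes, 1 of 9 was higher and 7 were lower than in the gated cells. *Hhex* had 34.7, 69.2 and 36.6 CPM there (-2.51 ± 0.25, adjusted p = 5.8e-06) and *Cer1* had 21.7, 6.77 and 18.6 CPM (-3.20 ± 0.41, adjusted p = 3.61e-05).

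**Figure D4:**
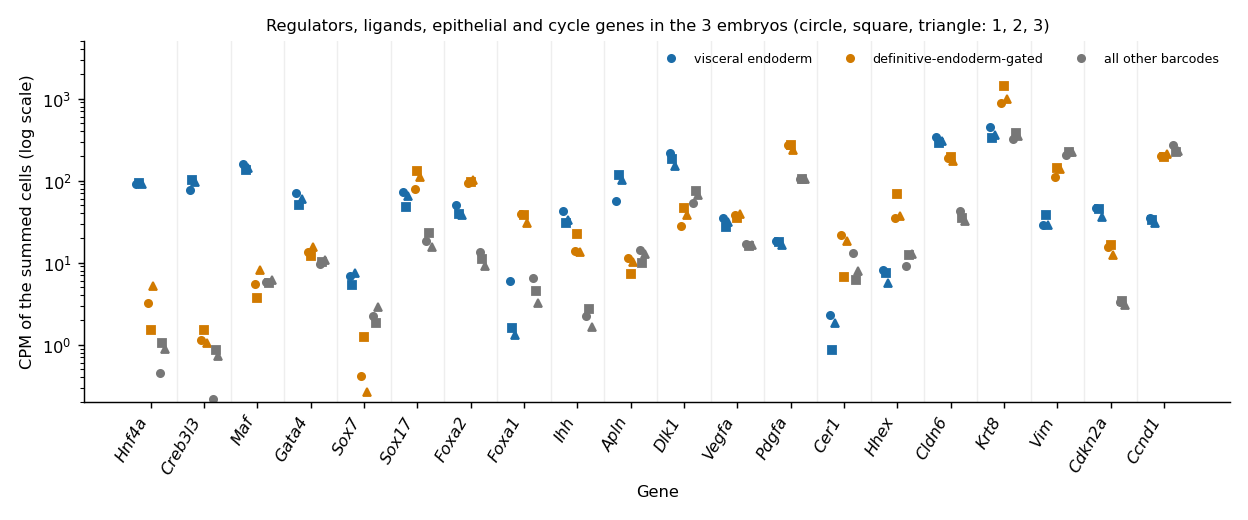
CPM of the summed cells (y axis, log scale) of regulators, ligands, epithelial and cell cycle genes (x axis) in visceral endoderm cells (blue), definitive-endoderm-gated cells (orange) and all other barcodes (grey); circles, squares and triangles are embryos 1, 2 and 3. Hnf4a, Creb3l3 and Maf are high in visceral endoderm alone among the 3 classes, while Foxa1, Pdgfa, Hhex and Krt8 are highest in the definitive-endoderm-gated cells; Foxa2 and Sox17 were used to gate the latter.

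Visceral endoderm cells also varied among themselves. Each cell was thinned to 5000 UMIs, with 29 shallower cells left out, and the variance of each gene over its mean (Fano factor, near 1 for counting noise alone) was averaged over the embryos. Of 1517 genes with a mean of at least 0.5 UMIs in every embryo, the median Fano factor was 1.07 and 41 genes were above 2. *Spink1* had the highest Fano factor, at 13.4 ± 2.53 (SD, n = 3). The factor was not adjusted for the mean, with which it can rise, so abundant genes can rank high by it. The count of *Spink1* per cell had a median of 29, 17 and 23 and a 90th percentile of 61, 35.9 and 56 UMIs in the 3 embryos. *Cdkn1c*, a maternally expressed inhibitor of the cell cycle, had a Fano factor of 8.82 ± 1.70 and no UMI in 54.4% of cells, and the share of cells with a UMI was 57.1, 36.1 and 43.7% in the 3 embryos. Among the carriers, *Ttr*, *Apoa1*, *Apoe* and *Rbp4* had Fano factors of 6.99 ± 0.656, 5.91 ± 0.702, 5.08 ± 0.343 and 4.28 ± 0.257. The counts of *Ttr* and *Apoa1* are cut from below by the rule.

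*Afp*, which the rule did not use, was uneven too. It had a median of 3, 2 and 2 UMIs per 5000 in the 3 embryos and no UMI in 15.2, 23.8 and 20.3% of cells. To describe what varies with it, cells above their embryo's median of thinned *Afp* UMIs (107, 410 and 413 cells) were called Afp-high and the rest Afp-low (182, 852 and 557 cells), and both were compared on the UMIs not used for the split. Over those UMIs *Afp* itself had 869.9, 762 and 764 CPM in Afp-high and 419.6, 322 and 329 CPM in Afp-low cells. Without regard to embryo, edgeR called no gene (0%) of 10661 at an adjusted p of 0.05, with 1011 genes at an unadjusted p under 0.05, while DESeq2 called 26 higher and 49 lower. Both sums of an embryo come from the same animal and deviated together. With the embryo as a block, 598 genes (5.61%) were higher and 449 (4.21%) lower in Afp-high cells. The genes named next come from that blocked fit, and their adjusted p without the block stands beside them.

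Other secreted plasma proteins were higher with *Afp*. *Spp2*, a secreted phosphoprotein of liver and bone, had 178, 126 and 147 CPM in Afp-high and 94.6, 52.8 and 60.7 CPM in Afp-low cells, higher in every embryo, with a log2 fold change of 1.21 ± 0.06 (adjusted p = 2.82e-14) in the blocked fit and an adjusted p of 0.0902 without the block. *Fga* and *Fgg*, chains of fibrinogen, had log2 fold changes of 0.97 ± 0.10 (adjusted p = 3.24e-08) and 0.86 ± 0.08 (adjusted p = 6.57e-09), against adjusted p of 0.149 and 0.154 without the block. *Trf*, transferrin, had 146, 96.7 and 100.5 CPM against 95.9, 51.8 and 62.2 CPM (0.79 ± 0.06, adjusted p = 4.65e-10, and 0.178 without the block). *Ptgds*, a lipocalin-type prostaglandin synthase, and the protease *Prss12* had log2 fold changes of 1.19 ± 0.15 (adjusted p = 1.64e-06) and 0.75 ± 0.08 (adjusted p = 1.31e-07), with adjusted p of 0.546 and 0.518 without the block. Under the block, serum carriers were higher in 15 of 20 tested members, apolipoproteins in 11 of 17, lysosomal genes in 18 of 28, transporters in 18 of 24, the vacuolar ATPase in 11 of 15 and imprinted and X-linked genes in 13 of 19, where 1 was lower. Most of these calls were lost in cells with at least 100 UMIs of *Ttr* and *Apoa1* per 10000, where the blocked fit called 18 genes higher in all. That fit held fewer cells, with 61, 313 and 279 Afp-high and 54, 382 and 186 Afp-low cells in the 3 embryos. The part of cell number in the lost calls was not tested.

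The genes named as lower in Afp-high cells have known roles outside secretion. *Mest* had 15.4, 25.7 and 21.7 CPM against 30.1, 60.2 and 59.1 CPM (-1.22 ± 0.09, adjusted p = 8.7e-11, and 0.129 without the block). *Marcks*, a substrate of protein kinase C, had 21.0, 37.4 and 51.7 CPM against 86.2, 92.7 and 82.4 CPM (-1.11 ± 0.11, adjusted p = 2.03e-08, and 0.0985), and *Ccnd1* had 14.4, 21.0 and 21.1 CPM against 48.4, 43.8 and 39.96 CPM (-1.09 ± 0.11, adjusted p = 2.03e-08, and 0.0591). *Chd7* and *Fzd2*, a chromatin remodeller and a Wnt receptor, had log2 fold changes of -1.20 ± 0.13 (adjusted p = 2.11e-07) and -1.12 ± 0.15 (adjusted p = 4.66e-06), with adjusted p of 0.0985 and 0.0985 without the block. *Hba-x*, an embryonic globin, was at 0 in both classes of embryo 1, so its -1.20 ± 0.16 (adjusted p = 6.03e-06) rests on embryos 2 and 3 (0.856 without the block). Markers of some other lineages moved with the split. The mesoderm markers summed to 18.9, 23.1 and 26.0 CPM in Afp-high and 46.3, 58.3 and 38.2 CPM in Afp-low cells, and those of extraembryonic mesoderm and allantois to 16.1, 23.5 and 27.6 against 28.8, 60.3 and 59.8 CPM. Endothelial and ectoderm and epiblast markers were also lower in the Afp-high cells of every embryo, with means of 56.3 against 70.4 CPM and 201 against 264 CPM. The visceral endoderm markers, which include *Afp* and the genes of the rule, were higher in the Afp-high cells of every embryo. They summed to 23413, 26689 and 23869 CPM in Afp-high and 17822, 19564 and 17943 CPM in Afp-low cells. The remaining lists had no common direction over the embryos. Cardiac mesoderm markers had means of 28.1 and 27.6 CPM, node markers 8.73 and 5.13 CPM, trophoblast markers 40.7 and 41.0 CPM, parietal endoderm markers 973 and 962 CPM, and erythroid markers, most abundant in embryo 2, 56.0 and 110.0 CPM in Afp-high and Afp-low cells. High doublet scores were rarer in Afp-high cells, at 1.87, 6.34 and 4.84% against 10.99, 16.5 and 13.1%. Without the barcodes with high doublet scores the blocked fit called 150 genes (1.455% of 10306) higher and 40 (0.388%) lower, 143 and 29 of them shared with the calls above. *Mest* and *Hba-x*, at log2 fold changes of 0.01 and 0.04, were not called, and neither were *Ccnd1* and *Fzd2*. The part of other-lineage transcripts in the remaining calls was not tested. Restricted to cells with at least 100 UMIs of *Ttr* and *Apoa1* per 10000, the blocked fit called 18 genes (0.193% of 9345) higher. All 18 were shared, among them *Spp2*, *Fga*, *Fgg*, *Trf* and *Ptgds*. The same fit called 3 genes (0.032%) lower (*Apln*, *Aqp8* and *Fabp1*), of which 2 were shared. The group counts narrowed with this restriction. Apolipoproteins were higher in 2 of 16 tested members (*Apoa2* and *Apoa4*) and serum carriers in 4 of 20, while none of the 28 lysosomal genes, 14 vacuolar ATPase subunits and 24 transporters was higher, and the water channel *Aqp8* was lower. Of the imprinted and X-linked genes, 1 of 19 was higher (*Cdkn1c*). Without high doublet scores, but at the threshold of 30, the blocked fit called higher 9 of 20 serum carriers, 5 of 17 apolipoproteins, 7 of 28 lysosomal genes, 5 of 24 transporters, with *Aqp8* lower, 8 of 19 imprinted and X-linked genes and none of the 15 vacuolar ATPase subunits.

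**Figure D5:**
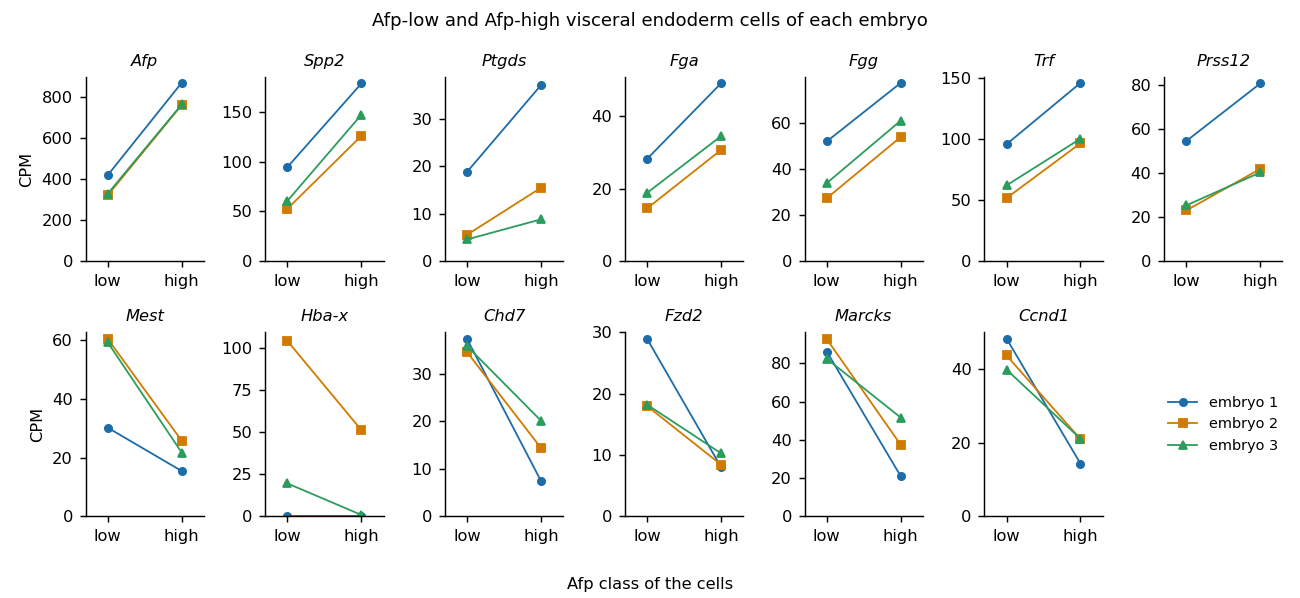
CPM of Afp and of the 6 genes named in each direction (y axes, from 0, different in each panel) in Afp-low and Afp-high visceral endoderm cells (x axis), summed over the UMIs not used for the split; each line is an embryo. Afp goes from 419.6, 322 and 329 to 869.9, 762 and 764 CPM. The 6 genes named as higher rise in every embryo, and the other 6 genes fall in every embryo except Hba-x, which is at 0 in embryo 1.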

How the data were processed

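UMI counts per gene and barcode were deposited for 3 libraries, 1 per embryo. The authors made them from 10x 3′ libraries with Cell Ranger 3.1.0 on mm10 with an added EGFP sequence, and replicates were not pooled. Barcodes were kept at 1500 to 8500 genes (7500 at most in embryo 2) and up to 10% mitochondrial UMIs, and Scrublet (scanpy 1.11.5, Python 3.11.15) called only 1 doublet per library, so no doublet was removed and at most the highest 6% of scores per library were left out as an alternative.

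UMIs were summed per embryo and class. The main test was edgeR 4.0.16 (R 4.3.3; TMM, filterByExpr, quasi-likelihood, Benjamini-Hochberg at 0.05), DESeq2 1.42.0 was an alternative, and the standard error is the log2 fold change over the root of F. The 4 genes of the rule, and those of the other gates, were not tested. CPM values are plain. The members and gene lists were chosen with earlier results of these data known. Named were the 4 most abundant members of each list, members called against their list, all listed regulators and ligands, and the largest changes at 50 CPM or more (20 CPM in the Afp split). Some of the genes this rule names, and 1 of the 4 promoter motifs searched, are not reported here.

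The 2 sums of an embryo come from 1 animal, and their deviations across genes correlated in each embryo (r = 0.451, 0.435 and 0.413 against all other barcodes, 0.48, 0.499 and 0.303 in the Afp split), so the embryo numbers pair the sums. Embryos were separate animals. In simulated data for the first comparison, 86 of 100 genes changed by a log2 value of 1 and 97 of 100 changed by 2 were recovered, with 11 false calls among 15359 genes. The simulation used a fixed dispersion, no embryo effect and few changed genes, all above a count floor. These rates therefore do not measure the error of the calls reported here. Intervals are 95% Clopper-Pearson and, like the floor of 3 counts, cover counting error only. Alternatives were the tool, scaling, filter, rule, depth, doublets, low mitochondrial share, block and each embryo left out. Coordinates are GENCODE on GRCm38. Of 31054 features, 31011 were found there.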

Additional observations from a re-analysis of the deposited data

Results flagged for a closer look

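Transcripts of the added EGFP sequence were present in 2 libraries, although no embryo is labelled as carrying it and no comparison uses it. Embryo 1 had 31 EGFP UMIs in 21 barcodes, embryo 3 had 32 UMIs in 22 barcodes, and embryo 2 had 0 UMIs. Visceral endoderm cells were also found among the barcodes that failed quality control, which no comparison uses. Of 450, 505 and 410 such barcodes in embryos 1, 2 and 3, 53, 83 and 97 met the rule (11.8, 16.4 and 23.7%), and 48, 73 and 89 of these had over 10% mitochondrial UMIs.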

How the results depend on the processing

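The comparison with all other barcodes kept its counts within 1.5 times under every alternative run, and leaving out 1 embryo gave 4323 to 5306 higher and 4654 to 5491 lower genes. Against definitive-endoderm-gated cells, leaving out 1 embryo gave 3482 to 3958 higher and 3256 to 3736 lower genes, and thinning every barcode to 5000 UMIs gave 2679 and 2612. The Afp split depended on the fit. Its counts of higher and lower genes were 0 and 0 in the fit without pairing, 598 and 449 with the embryo as a replicate block, 98 and 217 with no filter on low counts, 26 and 49 with DESeq2, and 35 and 79 between the highest and lowest of 3 equal groups of cells. Alternatives chosen after seeing the data combined the block with other choices, giving 18 and 3 at 100 UMIs of Ttr and Apoa1 per 10000 and 150 and 40 without high doublet scores. Leaving out 1 embryo gave 0 to 13 higher and 0 to 12 lower genes, and the calls came only without embryo 1. Among named genes, Phlda2 (main log2 fold change 0.12, not called) turned to -0.12 with library totals alone and -0.11 after thinning, and Wnt3 (not called) to -0.0242 with library totals alone and -0.00873 at the threshold of 100, and from -0.00507 to 0.373 when 1 embryo was left out. In the Afp split, Hba-x turned to 0.0365 in the blocked fit without high doublet scores and 0.0188 in the unblocked one, and Mest to 0.00534, 0.0171 and, at the threshold of 100 with the block, 0.00697. Of the genes named against all other barcodes, 7 lost their call in 18 values (Bmp2, Hhex, Krt8, Nodal, Psap, Ush1c and Vtn) and 4 uncalled genes gained one in 11 values (Angpt2, Cdk1, Foxa1 and Gata6). The cause of these changes was not tested. In the comparison with all other barcodes the block changed no call of a named gene apart from Cdk1 and Foxa1, which it called lower. At 1 library per embryo, transcripts under a few CPM are limited by depth.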

Other observations

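Of 4 sex chromosome genes measured, 2 were higher in visceral endoderm cells and none was lower. Ddx3y, a Y-linked RNA helicase, had 64.0, 57.2 and 60.1 CPM in visceral endoderm cells of embryos 1, 2 and 3, against 45.2, 49.5 and 43.9 CPM in all other barcodes (log2 fold change 0.62, adjusted p = 6.07e-05 in edgeR's quasi-likelihood test). Xist, the noncoding RNA that silences an X chromosome, had 23 UMIs in all visceral endoderm cells, or 0.105, 0.706 and 0.271 CPM, against 0.0538, 0.132 and 0.142 CPM (log2 fold change 2.21, adjusted p = 0.0106). Xist was under 1 CPM in every sum and highest in the visceral endoderm cells of embryo 2. The study reported no Xist expression in its cells. Before quality control the libraries of embryos 1, 2 and 3 held 13, 34 and 30 Xist UMIs over all barcodes. The other Y-linked genes did not pass the test. Eif2s3y had 39.6, 33.8 and 32.2 CPM against 42.3, 46.4 and 39.5 CPM (log2 fold change -0.05, adjusted p = 0.655), and Uty had 12.0, 11.0004 and 8.24 CPM against 15.7, 14.9 and 14.2 CPM (log2 fold change -0.29, adjusted p = 0.0722).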
